A study of Mus musculus with 21 samples.

Results

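Expression of 9 genes of retinoid signalling and metabolism was followed in mouse brain at 2 ages, with water or with trientine (TETA), a drug that chelates copper. They were the rows of both count tables whose symbol is Rxra, Rxrb, Rxrg, Rara, Rarb, Crabp1, Aldh1a1, Aldh1a2 or Cyp26b1, 9 of the 21872 symbols in each table. All 9 were found in both tables. The choice rested on a measured value: Rxrg was lower in TETA than in control at 7 weeks, so the 7-week contrast is given for these genes as a description. No p-value is printed for it, and where members past the fit's threshold are counted, the count supports nothing.

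The libraries fell into 4 groups. At embryonic day 18.5 (E18.5) there were 6 libraries from animals given water, which the labels call control, and 6 from TETA-treated animals, which they call copper-deficient; at 7 weeks after birth there were 5 and 4. All were labelled as mouse brain, and the only dissection that the protocol text describes is prefrontal cortex of male mice at 7 weeks. Strain, dose, route, duration of treatment and the number of animals behind a library are not given, so p-values measure the spread between libraries, which may be in part technical. The number before the hyphen in the E18.5 replicate numbers is shared by pairs of libraries, and the labels do not say what it stands for.

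Retinoic acid is made from vitamin A (retinol) in a pair of oxidation steps, the second of them by retinaldehyde dehydrogenases, and is cleared by CYP26 enzymes. It acts through nuclear receptors: a retinoic acid receptor (RAR) binds DNA together with a retinoid X receptor (RXR) at paired copies of a short half-site, and RXR is also the partner of thyroid hormone, PPAR, LXR and vitamin D receptors. In the brain the pathway is known for patterning the hindbrain and spinal cord, and RARβ and RXRγ are known as receptors of the striatum, where dopamine signalling is dense.

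Response elements of this pathway can be read directly in the promoter of a member. The sequences below are shown because Rarb and Rxrg are the 2 receptors that were lowest against control at 7 weeks, and because Rarb carries a textbook element of this kind. Sequences are from RefSeq promoter windows on GRCm38.p6 (the mm10 build), and all 9 members matched, with 16 start sites. The half-sites searched on both strands were AGGTCA, the common core, its variant GGGTCA, and the variants AGTTCA and, as in Rarb, GGTTCA, in the 250 bases upstream of each start. Capitals mark half-sites, and the Rarb stretch is chr14:16575506-16575535 on the minus strand.
Rarb: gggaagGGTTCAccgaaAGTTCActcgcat
The 2 half-sites of Rarb point the same way with 5 bases between them, an arrangement called DR5, and lie 53 to 37 bases upstream of the start. This DR5 was found in 1 of the 16 member windows and in 0.0883% of all 32851 windows of that length. A direct repeat with 1 or 2 bases between half-sites was found in 0 of the 16, and in 0.164% and 0.174% of all windows.

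For Rxrg both annotated starts are shown, since its counts do not tell which one was used. The windows are chr1:167598112-167598361 and chr1:167618015-167618264, both on the plus strand.
Rxrg, first start: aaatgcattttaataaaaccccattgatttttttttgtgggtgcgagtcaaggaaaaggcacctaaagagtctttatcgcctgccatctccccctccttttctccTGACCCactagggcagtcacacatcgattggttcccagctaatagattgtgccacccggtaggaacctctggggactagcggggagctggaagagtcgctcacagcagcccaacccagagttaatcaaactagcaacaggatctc
Rxrg, second start: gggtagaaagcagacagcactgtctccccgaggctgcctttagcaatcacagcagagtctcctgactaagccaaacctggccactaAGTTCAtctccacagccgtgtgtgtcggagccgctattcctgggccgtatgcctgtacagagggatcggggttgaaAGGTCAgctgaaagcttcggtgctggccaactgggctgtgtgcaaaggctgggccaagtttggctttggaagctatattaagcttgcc
The first window holds 1 half-site, on the opposite strand, and the second holds 2, neither of them paired at a spacing searched. A single half-site is common: it was found in 38.6% of all windows and in 6 of the 16 member windows. These matches describe letters only.

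The E18.5 libraries held 14678265 to 24308555 counts as deposited, and the 7-week libraries 17838051 to 24035857. In the E18.5 table all 1940 genes at 0 in control replicate 1-1 and above 0 elsewhere held multiples of 11 in the other libraries, and these were divided by 11. Of the members only Aldh1a2 was among them. Levels are in CPM, a gene's count relative to library size, with TMM scaling over all 21 libraries. Excitatory cortical neuron markers (8 genes) were present at both ages, with summed levels of 1387 to 1695 CPM at E18.5 and 2296 to 2483 CPM at 7 weeks, and no marker of that list was at 0. Striatal markers were present too, at 536 to 604 CPM at E18.5 and at 606 to 1622 CPM at 7 weeks.

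**Figure D1:**
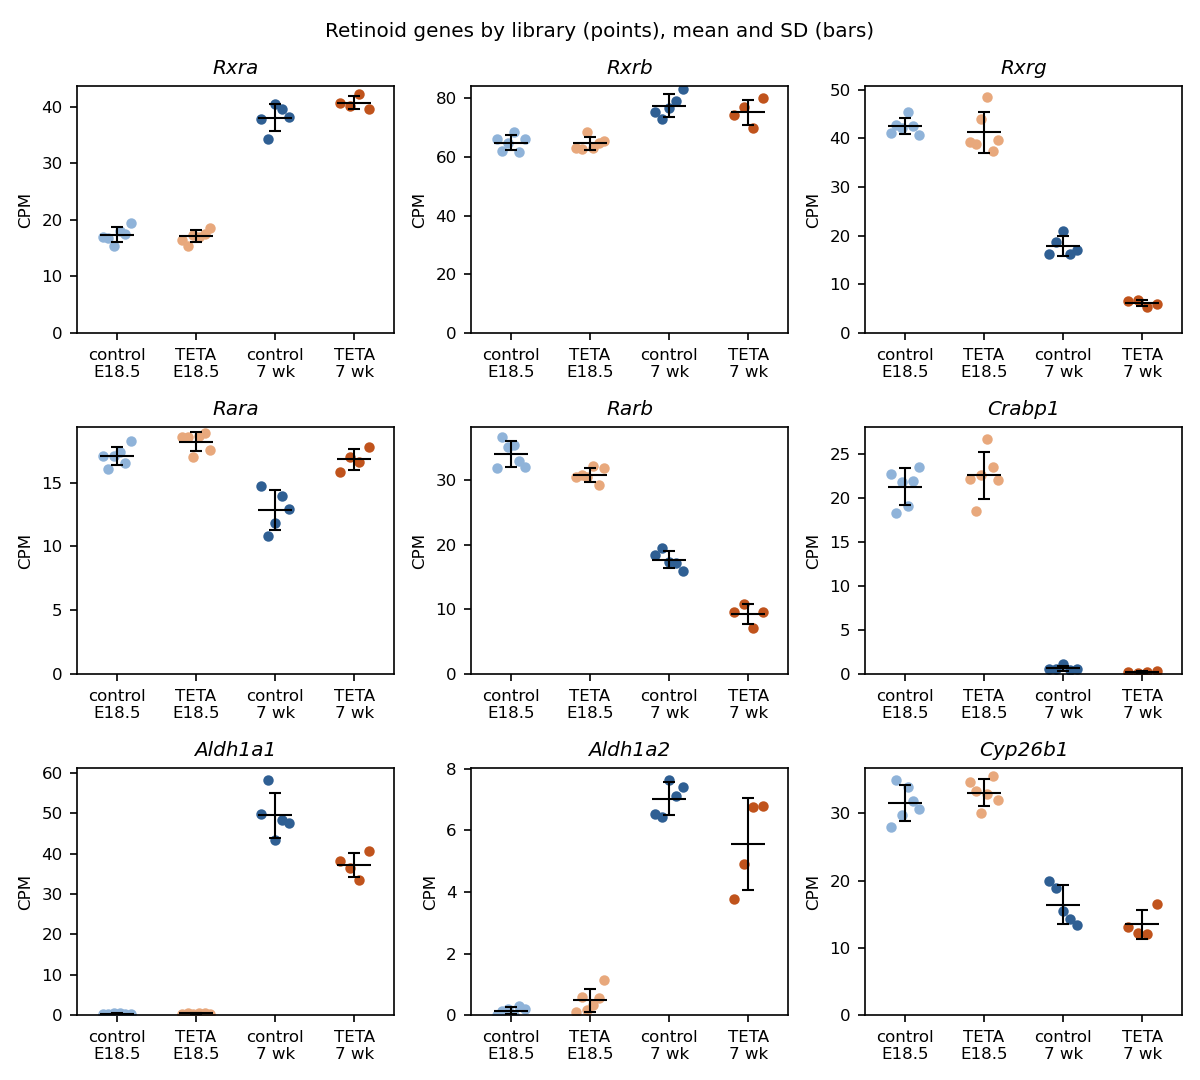
CPM of each member in every library (points) with the mean and SD of each group (bars), on linear axes from 0. Rxrg, Rarb, Crabp1 and Aldh1a1 in TETA at 7 weeks lie wholly below control, Rara lies wholly above, and the E18.5 groups overlap for all 9 genes.

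Seven-week brain held less RNA of 2 retinoid receptors after TETA. Among the RXR genes, Rxrg (chr1:167598384-167639623, plus strand, ENSMUSG00000015843.10), which encodes RXRγ, was at 16.3, 18.6, 21.02, 16.3 and 17.1 CPM in control replicates 1 to 5 and at 6.62, 6.71, 5.33 and 5.94 CPM in TETA replicates 1 to 4. Every TETA library lay below every control library. The means were 17.9 ± 2.01 and 6.15 ± 0.644 CPM (SD, n = 5 and 4), a difference of -1.53 (SE 0.095) on the log2 scale, or 2.88-fold lower. This is the value that led to the choice of the set.

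Its paralogues, which encode the widely expressed RXRα and RXRβ, lay close to control. Rxra (chr2:27676440-27762957, plus strand) was at 38.1 ± 2.35 CPM in the water group and 40.7 ± 1.18 CPM after TETA at 7 weeks (SD, n = 5 and 4). Its log2 fold change was 0.11 (SE 0.050). Rxrb (chr17:34031812-34038399, plus strand) was at 77.4 ± 3.87 and 75.3 ± 4.24 CPM, with a log2 fold change of -0.03 (SE 0.045). Libraries of both groups overlapped for both genes.

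The same Rxrg values can be set out as a share of the 3 RXR genes. To compare genes, CPM was divided by the union of annotated exons in kilobases (GENCODE M21). Rxrg made up 22.7% ± 2.24 of the summed RXR level per kb in control (SD, n = 5) and 9.20% ± 0.804 in TETA (n = 4), with ranges of 20.7% to 25.5% and 8.39% to 9.92%. Rxrb held 56.9% ± 2.07 and 65.1% ± 1.53, and Rxra 20.4% ± 0.858 and 25.7% ± 1.66. These shares restate the lower Rxrg level, since Rxrb and Rxra themselves were close to control. The summed level itself was 34.2 ± 1.39 CPM per kb in control and 29.1 ± 1.01 in TETA.

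**Figure D2:**
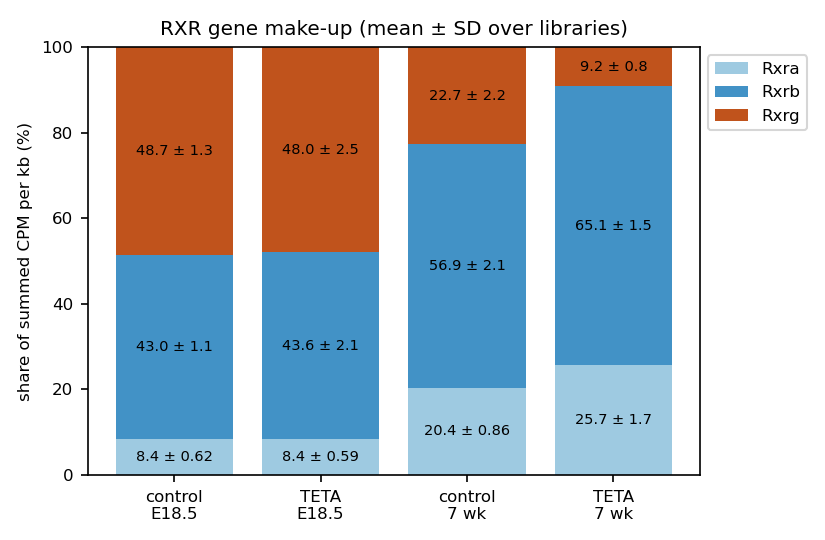
Share of Rxra, Rxrb and Rxrg in the summed RXR level per kb of exon (percent, bars; printed values are mean ± SD over libraries) in each group. Rxrg is the largest part at E18.5, with 48.7% in control and 48.0% in TETA, and the smallest in TETA at 7 weeks, with 9.20%.

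Of the RAR genes, the retinoic acid receptors proper, one was lower and one higher. Rarb (chr14:16430839-16819156, minus strand, ENSMUSG00000017491.9), which encodes RARβ, was at 18.4, 19.5, 17.4, 17.2 and 16.02 CPM in control replicates 1 to 5 and at 9.63, 10.8, 7.08 and 9.64 CPM in TETA replicates 1 to 4. All 4 TETA values lay below all 5 control values. Its log2 fold change was -0.93 (SE 0.094), or 1.90-fold lower, at means of 17.7 ± 1.30 and 9.29 ± 1.57 CPM (SD, n = 5 and 4).

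Rarb shares 38.4% of its exon bases with genes on the opposite strand, Gm48162 and Top2b, and whether strand was used in counting is not given. Top2b, the topoisomerase gene that overlaps it, had a log2 fold change of -0.01 (SE 0.034) at 7 weeks. No value is given for Gm48162, and the part of either gene in the Rarb value was not tested. The exons of the other 8 members overlap no other annotated gene.

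Rara (chr11:98927818-98974942, plus strand), which encodes the broadly expressed RARα, was at 14.7, 10.8, 11.8, 13.9 and 12.9 CPM in control and at 15.8, 16.98, 16.6 and 17.8 CPM in TETA. The TETA libraries were all higher, by a narrow margin at the nearest pair. The log2 fold change was 0.40 (SE 0.081). The remaining RAR gene, Rarg, is no member; it was at 6.55 ± 0.837 and 6.95 ± 0.697 CPM (SD, n = 5 and 4).

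The binding protein and the enzymes were at or below control. Crabp1 (chr9:54764748-54773110, plus strand), a cytoplasmic carrier of retinoic acid, was close to the limit of detection at 7 weeks, with 8 to 20 counts per control library and 2 to 6 per TETA library. Its means were 0.647 ± 0.277 and 0.218 ± 0.077 CPM (SD, n = 5 and 4), a difference of -1.49 (SE 0.39) on the log2 scale. The highest control value, 1.13 CPM in replicate 3, stood well above the other control values of 0.432 to 0.577 CPM. Without that library, or without control replicate 1, 2 or 5, the gene was below the count filter and gave no value. Without TETA replicate 2 it was at -1.32 and without TETA replicate 3 at -1.50, no longer past the threshold used below.

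Aldh1a1 (chr19:20492715-20643465, plus strand) encodes a retinaldehyde dehydrogenase that dopamine neurons also use to clear aldehydes. It was at 49.8, 58.3, 43.3, 48.3 and 47.5 CPM in control and at 38.2, 36.4, 33.5 and 40.6 CPM in TETA. No TETA library reached the lowest control library. The log2 fold change was -0.41 (SE 0.068).

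Aldh1a2 (chr9:71215789-71296243, plus strand), the main retinaldehyde dehydrogenase of embryonic mesoderm and of the meninges, was at 6.54, 6.43, 7.65, 7.12 and 7.42 CPM in control and at 3.78, 4.90, 6.77 and 6.80 CPM in TETA. Replicates 1 and 2 of TETA were low and replicates 3 and 4 lay within the control range. The log2 fold change was -0.32 (SE 0.14); it ran from -0.44 without TETA replicate 3 to -0.17 without TETA replicate 1. Cyp26b1 (chr6:84571414-84593908, minus strand), which degrades retinoic acid, was at 16.4 ± 2.86 and 13.5 ± 2.11 CPM (SD, n = 5 and 4), with overlapping groups and a log2 fold change of -0.28 (SE 0.11).

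Counted over the set, 5 of 9 members were past the edgeR threshold (adjusted p 0.05, quasi-likelihood) at 7 weeks, against 9.96% of the 14240 genes tested. Of these 1 was higher (Rara), against 5.67% of all genes, and 4 were lower (Rxrg, Rarb, Crabp1 and Aldh1a1), against 4.28%. The same 5 had groups that did not overlap, against 11.2% of all genes, 5.41% higher and 5.84% lower. The median log2 fold change of the 9 was -0.32, beside 0.00019 over all genes. Nothing is read from these counts, since the contrast chose the set.

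**Figure D3:**
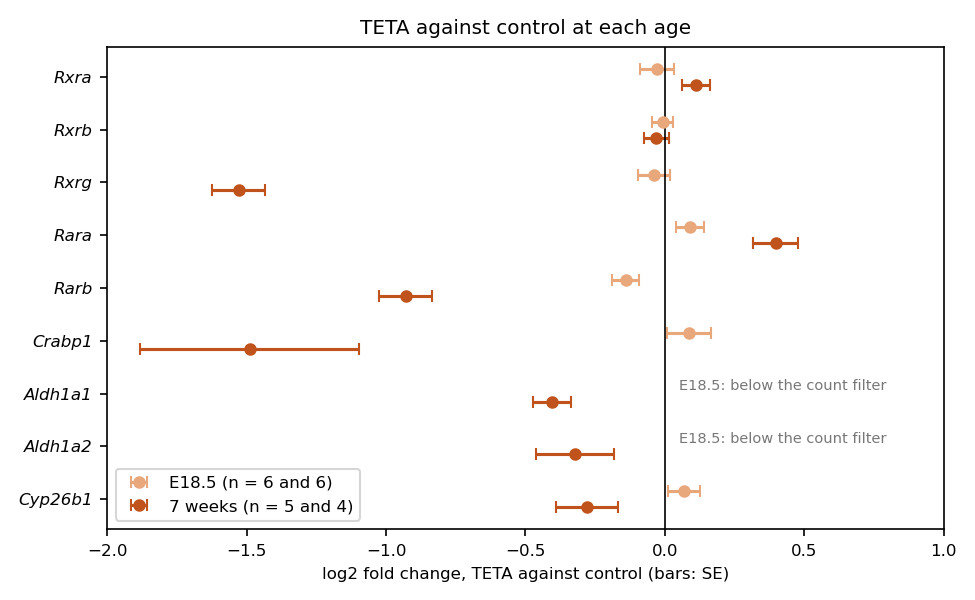
Log2 fold change of TETA against control with its SE for each member at E18.5 (pale) and 7 weeks (dark). At 7 weeks Rxrg lies at -1.53 and Rarb at -0.93, while at E18.5 the 7 genes that passed the count filter lie between -0.14 and 0.09.

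Several marker lists of other cells differed at 7 weeks too, and in bulk tissue fewer cells of a type and less RNA per cell cannot be told apart. Over all genes 4.28% fell and 5.67% rose past the edgeR threshold at 7 weeks, and these shares stand beside the count of each list below. The lists were chosen with earlier results of these data known, so their counts are descriptions. The 14 striatal markers include Adora2a, Drd1, Drd2, Ppp1r1b and Penk, receptors, a signalling protein and a neuropeptide precursor of striatal projection neurons. All 14 fell in TETA, with a median log2 fold change of -1.37. Their summed level ran from 1351 to 1622 CPM in control and from 606 to 785 CPM in TETA, and 0 of the 14 were at 0 in either group. Group and striatal marker level do not overlap at this age. With the log2 striatal level as a covariate, 0 of the 9 members passed, 0 genes passed over the whole table and 656 genes had an edgeR p under 0.05 before adjustment.

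In that fit Rxrg was at a log2 fold change of -1.01 (SE 0.39), Rarb at -0.07 (SE 0.36), Crabp1 at -0.46 (SE 1.69), Aldh1a1 at -0.41 (SE 0.30) and Rara at 0.60 (SE 0.35). Aldh1a2 was at -1.39 (SE 0.55), Cyp26b1 at 0.19 (SE 0.48), Rxrb at 0.05 (SE 0.20) and Rxra at 0.14 (SE 0.22), so Cyp26b1 and Rxrb turned direction. With this covariate the SE of Rxrg was 0.39 in place of 0.095, and the part of group and of striatal content in these values cannot be told apart.

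The 12 meningeal markers, which include collagen and matrix genes such as Col1a1, Col1a2, Dcn and Lum, were all lower on average in TETA at 7 weeks. Of them 5 fell by the adjusted test, and the summed level was 113 to 131 CPM in control and 70.5 to 106 CPM in TETA. The TETA libraries low in Aldh1a2 were also the lowest in these sums: those with 3.78 and 4.90 CPM of Aldh1a2 had 70.5 and 92.9 CPM of meningeal markers, and the ones with 6.77 and 6.80 CPM had 106 and 100 CPM. With the log2 meningeal level as a covariate its log2 fold change was 0.16 (SE 0.15) in place of -0.32. Meningeal sums of the groups do not overlap either, so the part of group and of meningeal content in this fit cannot be told apart. In that fit Rxrg was at -1.64 (SE 0.15), Rarb at -1.12 (SE 0.14), Rara at 0.45 (SE 0.12) and Aldh1a1 at -0.49 (SE 0.10), and Crabp1 (-1.37, SE 0.63) was no longer past the threshold.

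The choroid plexus list, whose cells also handle retinol, summed to 3.91 to 7.24 CPM in TETA and 4.84 to 65.5 CPM in control at 7 weeks, where the control libraries other than replicate 4 reached 6.18 CPM. Of the 5 genes of that list that were tested, 1 fell, Clic6 (log2 fold change -1.60, SE 0.32), at 0.976 to 2.32 CPM in control and 0.254 to 0.759 CPM in TETA. The midbrain dopamine list (5 genes), listed because Aldh1a1 marks part of those neurons, summed to 1.81 to 2.60 CPM in TETA and 2.15 to 3.53 CPM in control, with En1 at 0 in both groups. Excitatory cortical markers summed to 2309 to 2483 CPM in control and 2296 to 2410 CPM in TETA, and 2 of the 8 fell by the adjusted test, Emx1 (-0.26, SE 0.070) and Rorb (-0.18, SE 0.055). Endothelial markers (6 genes) summed to 187 to 213 CPM in control and 195 to 223 CPM in TETA, and 1 of the 6, Flt1, rose (0.22, SE 0.052). Blood markers (5 genes) summed to 35.2 to 52.8 CPM in control and 31.5 to 51.0 CPM in TETA, and 0 of the 5 passed in edgeR or DESeq2, with 0 under 0.05 in edgeR before adjustment. The part of the choroid plexus, cortical, endothelial, blood and dopamine lists in the members' values was not tested.

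**Figure D4:**
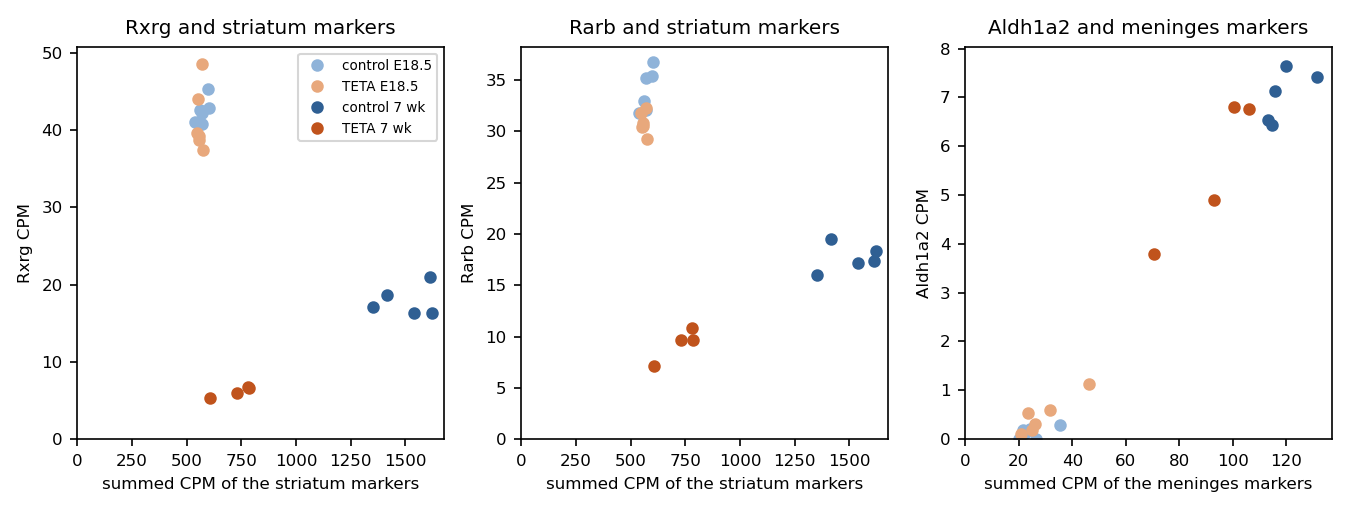
Rxrg and Rarb CPM against the summed CPM of 14 striatal markers, and Aldh1a2 CPM against that of 12 meningeal markers, 1 point per library. At 7 weeks the TETA libraries have low Rxrg, Rarb and striatal sums together, and at E18.5 Rxrg is at 37.4 to 48.6 CPM with striatal sums of 536 to 604 CPM.

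At E18.5 no member differed between TETA and control by the test. Of 9 members 7 passed the count filter, and 0 of the 7 were past the edgeR threshold, where 0% of the 13794 genes tested were. DESeq2 also called 0 of the 7. Before adjustment 1 member was under 0.05, against 4.78% of all genes. The values of the groups overlapped for all 9, where 0.319% of all genes tested had groups that did not.

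The member with the smallest p at E18.5 was Rarb. It was at 31.8, 34.1 and 36.8 CPM (lowest, median and highest) in control and at 29.3, 30.7 and 32.3 CPM in TETA, so that the TETA median lay below the lowest control library while the groups still overlapped. Its log2 fold change was -0.14 (SE 0.049), with an adjusted p of 0.874 from edgeR and 0.0091 before adjustment. The overlapping gene Top2b was at -0.06 (SE 0.038), and its part in the Rarb value was not tested.

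For Rxrg no difference was found at that age. The lowest, median and highest values were 40.8, 42.4 and 45.3 CPM in control and 37.4, 39.4 and 48.6 CPM in TETA. The TETA libraries spread to both sides of the control range. Its log2 fold change was -0.04 (SE 0.057, edgeR adjusted p 0.996).

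Rxra, Rxrb, Rara, Crabp1 and Cyp26b1 were at log2 fold changes of -0.03 (SE 0.061), -0.01 (SE 0.037), 0.09 (SE 0.050), 0.09 (SE 0.077) and 0.07 (SE 0.057) at E18.5. Over the 7 members the median was -0.01, beside -0.0027 over all genes. Striatal markers at this age summed to 536 to 604 CPM in control and 549 to 574 CPM in TETA, and 0 of the 12 tested passed in edgeR or DESeq2, with 2 at an edgeR p under 0.05 before adjustment.

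Both retinaldehyde dehydrogenase genes were near the detection limit at E18.5 and did not pass the filter. Aldh1a1 had 3 to 10 counts per control library and 4 to 13 per TETA library. Aldh1a2, after division by 11, had 0 to 7 counts in control, with 2 libraries at 0, and 2 to 25 in TETA. A count of 0 allows up to 3 counts in such a library, for counting error only. The library with most Aldh1a2, TETA replicate 3-2 at 1.12 CPM, was also the one with the highest meningeal sum at that age, 46.2 CPM, where the other 11 libraries had 20.2 to 35.3 CPM.

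Between ages the set differed in every member. In control, 9 of 9 members passed the edgeR threshold in a fit over both tables, but so did 89.3% of the 14660 genes tested. Of the 9, 4 were higher at 7 weeks, against 44% of all genes, and 5 lower, against 45.3%. With an absolute log2 fold change of at least 1 as a further condition, 5 of 9 passed (Rxra, Aldh1a1 and Aldh1a2 higher at 7 weeks, Rxrg and Crabp1 lower), against 41.3% of all genes. The 3 higher stand beside 23.2% of all genes and the 2 lower beside 18%. All 9 had an adjusted p of 9.34e-07 or below. Age goes together with table, dissection and any batch, and these cannot be told apart.

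Aldh1a1 and Aldh1a2 had the largest rises of the 9 members, with or without the division by 11. Aldh1a1 was at 0.315 ± 0.096 CPM at E18.5 and 49.4 ± 5.497 CPM at 7 weeks in control (SD, n = 6 and 5), a difference of 7.23 (SE 0.13) on the log2 scale. Aldh1a2 rose from 0.137 ± 0.119 to 7.03 ± 0.533 CPM, a difference of 5.53 on the log2 scale (SE 0.32). This size rests on the division by 11: with counts as deposited it was 2.17 (SE 0.48, edgeR adjusted p 0.00020). The third gene of that family, Aldh1a3, from the list of other pathway genes, was at 0.21 (SE 0.19, edgeR adjusted p 0.286). The meningeal markers rose: 11 of 12 were higher at 7 weeks by the adjusted test, against 44% of all genes. Their summed level in control went from 20.2 to 35.3 CPM at E18.5 to 113 to 131 CPM. The part of meningeal content in the Aldh1a2 rise was not tested.

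Crabp1 and Cyp26b1 fell with age. Crabp1 went from 21.2 ± 2.09 to 0.647 ± 0.277 CPM (SD, n = 6 and 5), a difference of -5.05 (SE 0.14) on the log2 scale. Cyp26b1 went from 31.5 ± 2.63 to 16.4 ± 2.86 CPM, a difference of -0.94 on the log2 scale (SE 0.085). No control library at one age reached the range of the other for either gene. The other cellular retinoic acid-binding protein gene, Crabp2, of the list of other pathway genes, rose, with a log2 fold change of 0.54 (SE 0.22, edgeR adjusted p 0.023).

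The receptors divided. Rxra rose from 17.4 ± 1.38 to 38.1 ± 2.35 CPM, a difference of 1.13 on the log2 scale (SE 0.055), and Rxrb rose slightly, by 0.26 (SE 0.041). Rxrg fell from 42.5 ± 1.63 to 17.9 ± 2.01 CPM (SD, n = 6 and 5), a difference of -1.25 (SE 0.068) on the log2 scale. Rarb fell from 34.0 ± 2.02 to 17.7 ± 1.30 CPM, with a log2 fold change of -0.94 (SE 0.064), and Rara had one of -0.41 (SE 0.064). Top2b, which overlaps Rarb on the other strand, fell by 2.00 (SE 0.037) on the log2 scale over the same interval, and its part in the Rarb value was not tested.

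With age Rxrg and most striatal markers differed in direction. Of the 14 striatal genes 13 were higher at 7 weeks than at E18.5 in control, against 44% of all genes. Lower were 0, against 45.3%, and the median log2 fold change was 1.13, while Rxrg and Rarb were lower. The striatal sum in control was 1351 to 1622 CPM at 7 weeks and 536 to 604 CPM at E18.5. The markers rose unequally, with log2 fold changes of 9.44 for Scn4b and 0.10 for Pde10a, so the sum need not follow striatal content. Age goes together with table, dissection and any batch. The part of striatal content in the Rxrg and Rarb values was not tested.

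Per kb of exon the order of the members changed with age. In control at E18.5 Crabp1 led with 26.5 ± 2.61 CPM per kb, followed by Rxrg (18.5 ± 0.709) and Rxrb (16.3 ± 0.653), and then by Rarb, Cyp26b1, Rara and Rxra between 6.47 and 3.18. Aldh1a1 and Aldh1a2 were last, at 0.064 and 0.061. The only neighbours whose libraries overlapped were Rarb with Cyp26b1 and Aldh1a1 with Aldh1a2. In TETA at E18.5 Rxrg (17.96 ± 1.85) and Rxrb (16.3 ± 0.565) overlapped as well.

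In control at 7 weeks Rxrb led with 19.5 ± 0.973 CPM per kb and Aldh1a1 was the second with 10.02 ± 1.11 (SD, n = 5). Aldh1a1 overlapped Rxrg (7.78 ± 0.875), and Rxrg overlapped Rxra (6.97 ± 0.430). Rarb, Aldh1a2, Cyp26b1 and Rara lay between 3.36 and 2.94, each overlapping its neighbour, and Crabp1 was last at 0.807 ± 0.346. In TETA at 7 weeks Rxrg ranked 5 of 9, at 2.68 ± 0.280 CPM per kb (SD, n = 4), below Rara at 3.85 ± 0.187, without overlap.

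The rest of the pathway was read from a list of 37 other genes for retinol transport, oxidation, esterification and receptor cofactors, of which 27 were tested at 7 weeks. There 4 passed the adjusted test in edgeR (14.8%, beside 9.96% of all genes), 1 higher and 3 lower, and the median log2 fold change was 0.0033. Stra6, the cell-surface receptor that takes up retinol from its plasma carrier, fell from 7.07 ± 1.03 to 4.45 ± 1.13 CPM (SD, n = 5 and 4), with a log2 fold change of -0.67 (SE 0.15, edgeR adjusted p 0.0055). Meningeal marker sums were lower in the same TETA libraries, as given above, and their part in the Stra6 value was not tested.

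Fabp5, a fatty acid carrier that can also bind retinoic acid, fell, with a log2 fold change of -0.18 (SE 0.047, edgeR adjusted p 0.015), and the coactivator Ncoa3 rose by 0.19 (SE 0.039, adjusted p 0.0028). DESeq2 also called 4 of 27. At E18.5, 0 of 28 passed in edgeR or DESeq2, and 0 were under 0.05 in edgeR before adjustment.

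RXR partner receptors were listed apart (12 genes). At 7 weeks 2 of 9 tested (22.2%, beside 9.96% of all genes) passed in edgeR, Nr4a2, an orphan receptor that pairs with RXR, lower with a log2 fold change of -0.49 (SE 0.069, adjusted p 0.00013) and the thyroid hormone receptor gene Thrb higher by 0.14 (SE 0.042, adjusted p 0.038). Nr4a2 went from 22.5 ± 1.49 to 15.98 ± 1.43 CPM and Thrb from 83.8 ± 3.89 to 91.7 ± 4.30 CPM (SD, n = 5 and 4). At E18.5, 0 of 8 passed in edgeR or DESeq2, and 1 was under 0.05 in edgeR before adjustment.

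With age, 27 of 29 other pathway genes changed in control (13 higher and 14 lower, beside 89.3% of all genes), as did 9 of 9 partners tested. The largest rises were those of Rbp4, the plasma retinol carrier (log2 fold change 4.98, SE 0.13), Pparg (4.41, SE 0.22), Thrb (3.59, SE 0.055), Nr4a1 (3.28, SE 0.14) and Tgm2, a known retinoic acid target (2.78, SE 0.13). The largest falls were those of Stra6l, Adh7, Nr4a2 (-1.77, SE 0.070), Rlbp1, a retinaldehyde-binding protein (-1.74, SE 0.060), and Fabp5 (-1.50, SE 0.059). Stra6l, a retinol transporter gene, was at 3.32 ± 0.732 CPM at E18.5 (SD, n = 6) and at 0 in 3 of 5 control libraries at 7 weeks. Adh7 was low at both ages, at 0.575 ± 0.312 and 0.1001 ± 0.082 CPM.

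The genes that varied most like 3 members were picked by Pearson's r of log2 CPM across libraries, as a description, since libraries share differences in depth and tissue content. Over the 12 E18.5 libraries the 5 closest to Rxrg among 13092 genes were Plekhf2, 2410004P03Rik, Tmem238, Mtmr11 and Polg2 (r from 0.847 to 0.887). For Rarb they were Il1rap, Grp, Ccdc173, Nudcd1 and Gm10767 (r from 0.871 to 0.900), and for Aldh1a2, among 13093 genes, they were Hmcn1, Wdr35, Col3a1, Mbp and Itpr3 (r from 0.848 to 0.898). No striatal marker and no other member was among them. For Aldh1a2 the r values at this age rest on 0 to 25 counts per library, with the most in TETA replicate 3-2. Its mean was 0.318 CPM, under the 1 CPM required of the genes compared with it.

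Over the 9 libraries at 7 weeks, with group means removed, the closest to Rxrg among 13403 genes were Flrt2, Lamp2, Galnt18, Dohh and Chd1 (r from 0.937 to 0.961). Scamp2, Garem2, Adgrg6, Abca5 and Plrg1 were closest to Rarb (r from 0.929 to 0.949), and Prkab2, Eri2, Fbh1, Ssr1 and Kif3a to Aldh1a2 (r from 0.927 to 0.962). Within groups r was positive with all 14 striatal markers for Rarb (0.257 to 0.857, median 0.756) and with 13 of 14 for Rxrg (median 0.576). For Aldh1a2 it was negative with all 14 (median -0.619). Of all 13403 genes, r with Rarb was 0.181 at rank 4312 and -0.109 at rank 7874. With Rxrg it was 0.045 at rank 5778, and with Aldh1a2 -0.031 at rank 7088, so either sign was common. TETA replicate 3 was the lowest TETA library in Rarb (7.08 CPM), Rxrg (5.33 CPM) and striatal sum (606 CPM). Its part in these r values was not tested. At E18.5 the signs over 12 striatal markers were mixed: r was positive for 11 with Rarb (-0.263 to 0.588, median 0.307), for 9 with Rxrg (-0.499 to 0.739, median 0.378) and for 6 with Aldh1a2 (-0.548 to 0.434, median -0.015).

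The TETA effect was also compared between ages in 1 fit over all 21 libraries. The difference of log2 fold changes, 7 weeks minus E18.5, was -1.50 (SE 0.11) for Rxrg, -0.80 (SE 0.10) for Rarb and -1.58 (SE 0.41) for Crabp1. For Aldh1a2 it was -2.05 (SE 0.57), which rests on the few E18.5 counts given above and lost its call in 11 of the 21 fits that leave out a library, with a range of -2.43 to -1.56; the last was without TETA replicate 3-2 of E18.5. The Crabp1 call was lost without control replicate 3 (-1.33) or TETA replicate 1 (-1.59), 2 (-1.42) or 3 (-1.59) of 7 weeks. These are descriptions, because each holds the 7-week contrast; 4 of 9 members, all of them lower, passed the adjusted test, against 3.1% of all genes, 1.67% higher and 1.43% lower. For the other 5 members the differences were 0.13 (Rxra), -0.03 (Rxrb), 0.30 (Rara), -0.72 (Aldh1a1) and -0.36 (Cyp26b1).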

How the data were processed

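For each age the authors deposited a table of raw counts, with a row per gene symbol. Per the submitters' processing notes, STAR 2.7.1a, featureCounts 2.0.1 and mm10 were used; annotation and strand setting are not given in the sources used here. Libraries were stranded poly(A) libraries, per the labels' protocols. Columns were matched to samples by title, and 0 columns were left over. The 1940 E18.5 rows that read 0 in control replicate 1-1 had their other values divided by 11.

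Each age was fitted alone, and both ages together for contrasts between ages: filterByExpr (minimum count 10), TMM, edgeR 4.0.16 quasi-likelihood test, Benjamini-Hochberg adjustment over all genes, threshold 0.05 (limma 3.58.1, DESeq2 1.42.0, R 4.3.3). SE is the log2 fold change divided by the square root of F. The fits were tested on simulated data. Marker covariates were log2 of the summed CPM + 1, centred.

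Exon lengths and coordinates are from GENCODE M21 on the same build. The members and lists were chosen with earlier results of these data known. All 9 members are named. Other pathway and partner genes are named if past the threshold in TETA against control, and for age the 5 higher and 5 lower with the largest change; 1 gene that the rule names is not reported here. The 5 genes of highest r to Rxrg, Rarb and Aldh1a2 are named among genes with a mean of at least 1 CPM (prior count 2). Markers named are examples of their lists; Rarg, Top2b, Aldh1a3, Crabp2, Clic6, Emx1, Rorb and Flt1 were chosen after their values were seen. Alternatives tried: filtering off, or at 50 mean counts; DESeq2; library totals in place of TMM; leaving out each library, undivided counts, the replicate block, summed E18.5 libraries, marker-level covariates (striatal, meningeal, Y-linked) and the 2 control groups alone. Counts limit precision for Crabp1, Aldh1a1 and Aldh1a2 where they are under about 25 per library.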

Additional observations from a re-analysis of the deposited data

Results flagged for a closer look

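Of 64 groups of 4 to 6 libraries examined (9 members and 7 marker lists), 2 held a library whose gap to the nearest other exceeded the 95% critical value of Dixon's ratio, where chance gives 3.2. Crabp1 in control replicate 3 at 7 weeks was at 1.13 CPM, with the other 4 libraries at 0.432 to 0.577 CPM (ratio 0.793). The summed choroid plexus level in control replicate 4 at 7 weeks was 65.5 CPM, with the others at 4.84 to 6.18 CPM (ratio 0.978).

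For 4 members the interaction term of the fit over 21 libraries, which compares the TETA effect between ages, was past the threshold, as it was for 3.1% of all genes. It is given as a description, because the 7-week contrast inside it chose the set, and nothing is read from the calls. The difference on the log2 scale was -1.50 for Rxrg, -0.80 for Rarb, -1.58 for Crabp1 and -2.05 for Aldh1a2. On leaving out each library in turn, the Aldh1a2 call was lost in 11 of 21 fits and the Crabp1 call in 4.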

How the results depend on the processing

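At E18.5, 0 members passed in every alternative run, and all 9 passed between ages in every alternative run. At 7 weeks the count of 5 was 4 to 6 on leaving out each library. Cyp26b1 (-0.35 and -0.39) was gained without control replicate 5 or TETA replicate 4, and Crabp1 (-1.32 and -1.50) was lost without TETA replicate 2 or 3; in 4 of the 9 such fits it was not tested. The striatal covariate gave 0 at 7 weeks in place of 5. The difference between ages was past the threshold for 2 to 5 members on leaving out each library; 2 remained without control replicate 3, TETA replicate 1 or TETA replicate 2 of 7 weeks, where Crabp1 and Aldh1a2 were lost. Aldh1a2 was lost in 11 of the 21 fits, by the widest margin without TETA replicate 3-2 of E18.5 (-1.56), and with counts as deposited (-2.08); its rise with age was then 2.17 in place of 5.53. Gained were Rara, in the higher direction (0.35), without control replicate 1, and Cyp26b1 without control replicate 5 (-0.43) or TETA replicate 4 (-0.47) of 7 weeks. At E18.5 the log2 fold change of Rxra ran from -0.063 to 0.0101 and that of Rxrb from -0.0249 to 0.0080 on leaving out each library; signs turned without control replicate 3-2 (0.0101) or TETA replicate 1-2 (4.57e-06) for Rxra, and without control replicate 2-2 (0.0080) or TETA replicate 1-1 or 1-2 (0.00039 and 0.00087) for Rxrb. At 7 weeks Rxrb ran from -0.059 to 0.00059, the sign turning without TETA replicate 3.

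Without TMM factors, 67.6% of 1483 called genes at 7 weeks were higher in place of 57.0% of 1418, and 72.0% of 574 in place of 54.0% of 454 for the difference between ages; the median of all genes between ages was -0.17 in place of -0.02. No member turned direction by this. At 7 weeks DESeq2 called 4 members and gave Crabp1 no adjusted p. DESeq2 called 10 genes in all at E18.5 and summed libraries 2, where edgeR called 0 (660 at an unadjusted p under 0.05). Leaving out TETA replicate 3 gave 927 genes in all at 7 weeks, and the meningeal covariate 530; for the difference between ages it gave 290. At E18.5, 3 genes passed without control replicate 3-2 and 7 without TETA replicate 1-2.

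With the replicate block 0 members passed at E18.5 by the full or the first number, and 4 of 8 tested at 7 weeks, against 5 of 8 in the same 8 libraries without it, a fit chosen after seeing the data. Same-numbered libraries had deviations that correlated at a mean of 0.019 at E18.5 (-0.275 to 0.284) and -0.050 at 7 weeks (-0.069 to -0.030), so the numbers did not pair them; the control library correlated best with its own number for 2 of 6 and 0 of 4.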
